A study of Mus musculus with 2 samples.

Results

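The 10 genes described here encode 5 inhibitory checkpoint receptors of lymphocytes (Pdcd1, Lag3, Havcr2, Tigit and Ctla4) and 5 ligands of such receptors (Cd274, Pdcd1lg2, Lgals9, Cd80 and Cd86). They were chosen by name, and all 10 were among the 17775 genes of the count matrix. MC38 mouse colon carcinoma cells were implanted into the backs of C57BL/6 mice. From day 7 the mice of both groups were gavaged for 14 days, 1 group with DFMO (difluoromethylornithine, which blocks the putrescine-making enzyme ornithine decarboxylase) and the other with water. The labels differ on the schedule, which is once a day in the design text and a pair of doses a day in the protocol. Tumours were digested, immune cells were taken over a Ficoll gradient, and cells of 4 mice were mixed for each group before 1 droplet 5′ RNA library was made. There is therefore 1 library per group, the mice cannot be told apart, and no test between the groups is possible. Intervals below are exact 95% intervals that cover counting error only, and where a count is 0 the limit given is 3 counts of the total, a fixed floor and not the upper end of such an interval.

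Checkpoint receptors restrain T and NK cells after activation. PD-1 (Pdcd1) is bound by PD-L1 (Cd274) and PD-L2 (Pdcd1lg2), CTLA-4 (Ctla4) competes with the costimulatory receptor CD28 for CD80 and CD86, and TIM-3 (Havcr2) has galectin-9 (Lgals9) among its described ligands. LAG-3 (Lag3) binds MHC class II, and TIGIT (Tigit) binds the poliovirus receptor family (Pvr, Nectin2), so the ligands of these last receptors are not among the 5 ligands here. In tumours, T cells that meet antigen for a long time are known to keep several of these receptors, regulatory T cells are known for high Ctla4, and Cd274 is known to be induced by interferon gamma.

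On mm10, Ctla4 (ENSMUSG00000026011) lies on chromosome 1 from 60887000 to 60915832 and Pdcd1 (ENSMUSG00000026285) on the same chromosome from 94038305 to 94052553. Lag3 lies on chromosome 6 from 124904361 to 124911705. Havcr2 (46454935 to 46481255) and Lgals9 (78962974 to 78984946) are on chromosome 11. Chromosome 16 carries Cd86 (36603869 to 36666081), Cd80 (38455561 to 38496335) and Tigit (43648867 to 43664146). The ligand genes of PD-1 are neighbours on chromosome 19, Cd274 from 29367455 to 29388095 and Pdcd1lg2 from 29410919 to 29471161, with 22823 bases between them. Between 0% and 7.58% (Tigit) of a member's 31-base words also occur in transcripts of other genes, so 9 of the 10 genes share 2.36% or less with any other transcript. The promoters of 3 receptors are shown with that of Pdcd1lg2, the ligand found in the same T and NK cell-like classes, as the 250 bases before the RefSeq start on GRCm38.p6 (the assembly of mm10; the RefSeq start of Ctla4 lies inside the gene span above), read 5′ to 3′ in the direction of the gene. Capitals mark matches to GGAAA, the core of the site of the T cell activation factor NFAT, on either strand (TTTCC on the other); 55.6% of 32851 RefSeq promoters hold it in the same window, so a match is a description of the letters. RefSeq held promoters of 8 of the 10 genes. Of the 4 not shown, Cd274 and Lgals9 held the core 1 time each, and Havcr2 and Cd80 held none. Neither an interferon-type GAS word (TTCNNNGAA) nor a match to ISRE, the interferon-stimulated response element, was found in the 4 windows shown, Lgals9 held an ISRE match from 55 to 46 bases before its start, and 7.02% and 2.98% of all promoters hold one on either strand.
Pdcd1 chr1:94052554-94052803, minus strand: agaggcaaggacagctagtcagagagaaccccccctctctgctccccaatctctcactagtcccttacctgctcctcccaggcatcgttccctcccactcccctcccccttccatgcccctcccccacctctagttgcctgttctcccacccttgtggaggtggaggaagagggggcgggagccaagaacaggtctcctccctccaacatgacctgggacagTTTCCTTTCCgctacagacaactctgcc
Tigit chr16:43664185-43664434, minus strand: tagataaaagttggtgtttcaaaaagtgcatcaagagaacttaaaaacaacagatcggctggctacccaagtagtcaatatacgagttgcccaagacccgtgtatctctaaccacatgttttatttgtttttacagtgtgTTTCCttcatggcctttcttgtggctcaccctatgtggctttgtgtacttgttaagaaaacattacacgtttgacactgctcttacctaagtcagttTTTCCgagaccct
Ctla4 chr1:60908775-60909024, plus strand: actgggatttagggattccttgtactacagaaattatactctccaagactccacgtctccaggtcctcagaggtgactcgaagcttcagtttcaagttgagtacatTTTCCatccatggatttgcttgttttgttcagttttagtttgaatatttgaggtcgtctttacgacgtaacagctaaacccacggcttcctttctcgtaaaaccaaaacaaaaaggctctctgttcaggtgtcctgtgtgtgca
Pdcd1lg2 chr19:29410669-29410918, plus strand: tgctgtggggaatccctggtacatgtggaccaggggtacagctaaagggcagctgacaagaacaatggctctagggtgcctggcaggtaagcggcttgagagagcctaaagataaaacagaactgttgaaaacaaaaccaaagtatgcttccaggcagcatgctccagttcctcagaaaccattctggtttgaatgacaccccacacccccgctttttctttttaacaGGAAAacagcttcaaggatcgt

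The DFMO library gave 4421 kept cells and 23383042 UMIs (unique molecular identifiers, each standing for 1 captured RNA molecule), with a median of 2208 per cell. The water library gave 6150 cells and 58368594 UMIs with a median of 6334.5, and 37 cell barcodes occurred in both. Cells were placed in 19 clusters without the use of the 10 genes, and a cluster was called X-like from marker genes. The 2 libraries held different mixtures: B cell-like cells were 33.5% of DFMO cells and 0.927% of water cells, monocyte and macrophage-like cells 4.21% and 19.9%, cells of the Ptprc-low class, named for few UMIs of the leukocyte gene Ptprc, 11.9% and 30.2%, and fibroblast-like cells, which had 5 and 30 UMIs of it in all, 3.62% and 17.0%, although the labels call the cells immune. For this reason levels are given within a class, as CPM, the UMIs of the gene divided by all UMIs of that class and scaled to 1000000. CPM is compared across cells and libraries and not between genes.

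Receptors lay mostly in T and NK cell-like cells, apart from Havcr2 in the water library. The UMIs of the ligands ranged from lymphocytes (Pdcd1lg2) to cells with little Ptprc (Cd274, Lgals9), which also held much of all UMIs. CD8 T cell-like cells held most Pdcd1 UMIs, 86.8% in the DFMO library and 87.6% in the water library, where the smaller regulatory T cell-like class held 7.97% and 7.36%. CD8 T cell-like cells also held most Lag3 UMIs (79.2% and 71.8%) and Tigit UMIs (58.5% and 56.6%). Ctla4 was divided between regulatory T cell-like cells (40.6% and 60.4%) and CD8 T cell-like cells (41.8% and 27.4%). Havcr2 was the receptor with a myeloid part: CD8 T cell-like cells held 62.6% and 33.8% of its UMIs, monocyte and macrophage-like cells held 19.5% and 36.8%, and conventional dendritic cell-like cells 9.40% and 16.4%. Cd274 was spread over several classes, with 28.3% and 28.6% of its UMIs in Ptprc-low cells, 14.6% and 21.7% in fibroblast-like cells and 16.8% and 26.5% in monocyte and macrophage-like cells. Pdcd1lg2 was instead found mostly in lymphocytes, with 34.1% and 38.2% in CD8 T cell-like cells and 17.3% and 22.2% in NK cell-like cells. These shares move with the mixture of cells: B cell-like cells held 21.5% of Pdcd1lg2 UMIs in the DFMO library and 0.604% in the water library.

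**Figure D1:**
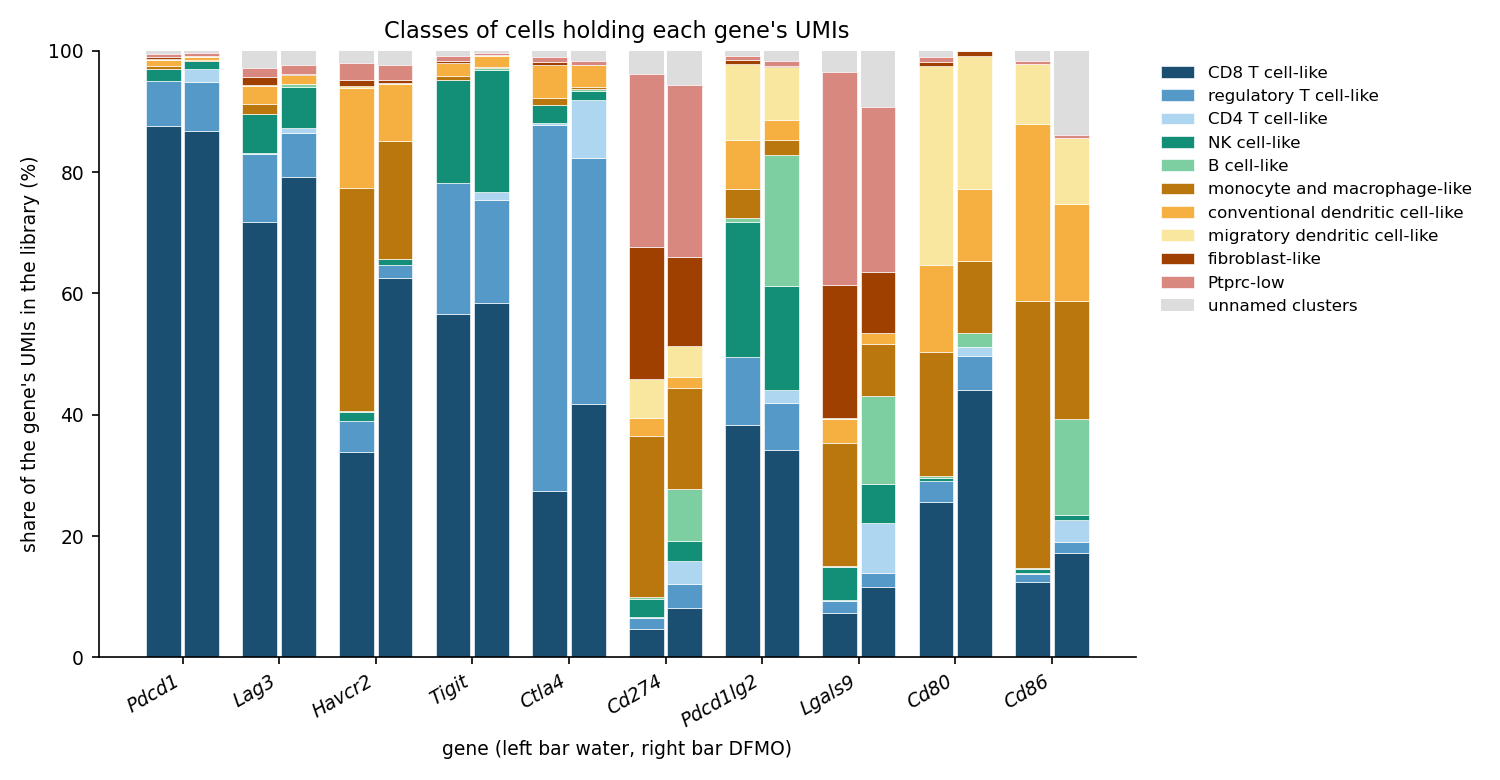
Share of each gene's UMIs (y axis, %) by class of cells, for the water library (left bar) and the DFMO library (right bar); grey is the unnamed clusters. Blue tones (T cell-like classes) fill most of the Pdcd1, Lag3, Tigit and Ctla4 bars, and the Cd274 and Lgals9 bars hold red and brown tones (Ptprc-low and fibroblast-like cells) that the receptor bars almost lack.

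Pdcd1, the receptor PD-1, stood at 542 CPM (interval 513 to 573) in CD8 T cell-like cells of the DFMO library and at 579 (553 to 607) in those of the water library. Regulatory T cell-like cells had 263 and 203 CPM. In this class 61 DFMO and 116 water cells had a UMI of the regulatory T cell factor gene Foxp3, and 78 and 147 did not. Pdcd1 was at 214.5 (159.7 to 282) and 130.2 CPM (98.87 to 168.3) in cells with one. In those without, which had fewer UMIs per cell, it was at 316.6 (245.4 to 402.1) and 308.8 (249.8 to 377.5). The next highest class was the 49 CD4 T cell-like cells of water, at 29.5 CPM from 2 UMIs. In DFMO B cell-like cells, which should lack the gene, 1 of 1479 cells had a UMI (0.0676%, median depth 1762 UMIs). The CD8 T cell-like class was itself uneven. Its cluster 5, led by Gzmf, Pdcd1, Cxcr6 and Lag3, had 884 and 848 CPM. Cluster 10, led by Cd7, Gzmk and Cd160, had 77.4 and 119.5 CPM, and cluster 15, which holds dividing cells (the division gene Mki67 was at 298 and 292 CPM), had 313 and 552. A further cluster with Cd8b1 and the naive T cell genes Lef1 and Tcf7 among its leading genes (cluster 8, 451 DFMO cells and 41 water cells) was left unnamed, and its Pdcd1 was 2.88 CPM in DFMO and 0 in water, where a count of 0 allows up to 47.3 CPM.

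Lag3, which encodes an MHC class II receptor, followed the same order in T cells. CD8 T cell-like cells had 574 CPM (543 to 605) in DFMO and 491 (467 to 516) in water; the values in cluster 5 were 975 and 772. Regulatory T cell-like cells had 280.4 and 321 CPM. NK cell-like cells carried Lag3 as well, at 100.1 CPM (82.8 to 120) in DFMO and 71.1 (59.8 to 84.0) in water.

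Tigit was the receptor most evenly spread over lymphocytes that carry killing or regulatory genes. Its highest class level was in regulatory T cell-like cells, at 492 CPM (429 to 561) in DFMO and 579 (526 to 636) in water. CD8 T cell-like cells had 322 and 364, and NK cell-like cells 226 and 176. Its intervals in regulatory T cell-like and CD8 T cell-like cells did not overlap in either library. At a common depth of 1000 UMIs per cell, 18.8% of DFMO and 18.9% of water NK cell-like cells had a Tigit UMI, against 0.139% of DFMO B cell-like cells.

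Ctla4 stood highest in regulatory T cell-like cells, with 932 CPM (845 to 1026) in DFMO and 1085 (1012 to 1162) in water. The cells of that class with a Foxp3 UMI had 1240.6 and 1387.4 CPM, and those without one 586 and 646.8. CD8 T cell-like cells had 182 and 118 CPM. CD4 T cell-like cells, of which 708 were in the DFMO library and 49 in the water library, had 75.4 and 44.3 CPM. In the DFMO library 47 of these CD4 T cell-like cells had a UMI of Foxp3, the regulatory T cell factor, and in them Ctla4 was 334 CPM (232 to 467), against 53.7 (41.4 to 68.4) in the other 661.

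Havcr2, the receptor TIM-3, was found in CD8 T cell-like cells at 115 CPM (102 to 130) in DFMO and 98.6 (88.0 to 110.2) in water. Cluster 10 held 1 of the 273 and 8 of the 310 UMIs. In both libraries the intervals of conventional dendritic cell-like cells overlapped those of the CD8 T cell-like class, and those of monocyte and macrophage-like cells lay below them. Conventional dendritic cell-like cells had 87.0 CPM (62.4 to 118) and 84.7 (71.7 to 99.3), and monocyte and macrophage-like cells 77.2 (61.7 to 95.5) and 60.7 (54.4 to 67.5). Among the conventional dendritic cell-like cells, those with a UMI of the type 1 markers Xcr1 or Clec9a and of no type 2 marker had 103 CPM (12 DFMO cells) and 108 (63 water cells). Those with a UMI of Cd209a, Clec10a or Mgl2 and of no type 1 marker had 42.7 (19 cells) and 29.4 (65 cells), and in the water library the intervals (85.6 to 134, and 14.7 to 52.6) did not overlap. Median depths were unlike, at 18844 and 11862 UMIs per cell with type 1 markers and 6046 and 5128 with type 2 markers. In the conventional dendritic cell-like class, 6 of 54 DFMO cells and 14 of 219 water cells had UMIs of the T cell genes Cd3e, Cd3d or Cd3g. These cells held 92.3% and 38.1% of its Lag3, 88.0% and 79.5% of its Tigit and 54.1% and 87.7% of its Ctla4, but 14.6% and 7.29% of its Havcr2, and the part of T cell RNA in its receptor levels was not tested.

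**Figure D2:**
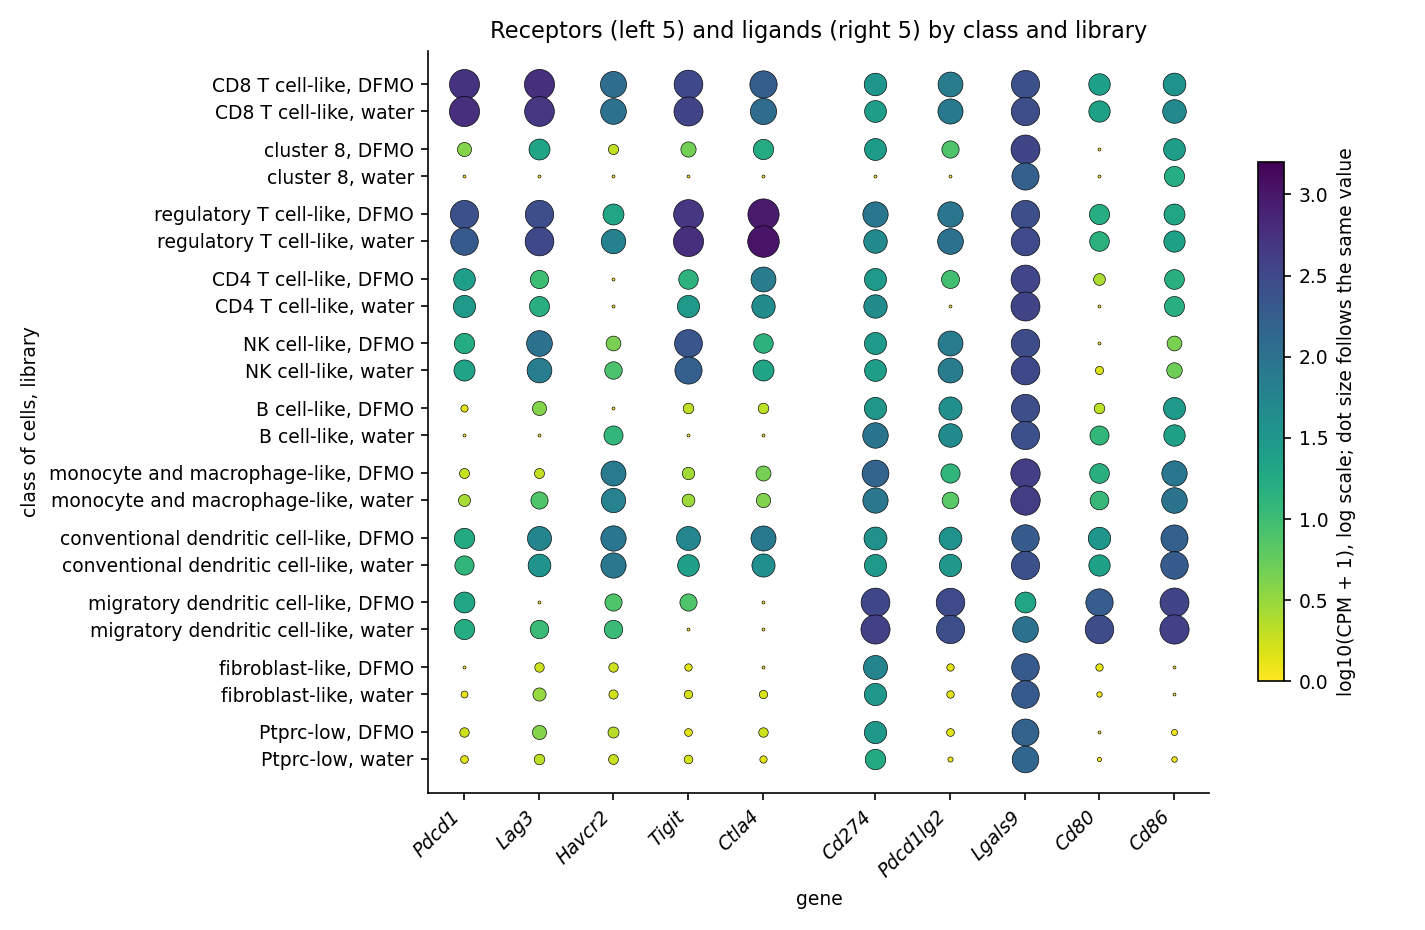
Level of each gene (columns; 5 receptors, then 5 ligands) in each class and library (rows), as log10(CPM + 1) by colour and dot size. Dark dots of Pdcd1 and Lag3 are in CD8 T cell-like rows (542 and 579 CPM for Pdcd1), dark Ctla4 dots in regulatory T cell-like rows (932 and 1085), and dark Cd274, Cd80 and Cd86 dots in migratory dendritic cell-like rows.

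Cd274, which encodes PD-L1, had its highest class level in migratory dendritic cell-like cells, a type known to carry antigen to lymph nodes, at 331 CPM (246 to 436, 28 cells) in DFMO and 376 (311 to 451, 66 cells) in water. Within the monocyte and macrophage-like class, cluster 9, led by C1qa, Mmp12 and Arg1, had 386 CPM (325 to 455) in DFMO and 160 (143 to 178) in water. Cluster 6 (Ly6i, Il1b) had 55.4 and 69.4, and cluster 12 (Hp, Chil3) had 5.38 and 7.89. Cells with little Ptprc carried the gene too. Fibroblast-like cells had 54.9 CPM (46.2 to 64.6) and 30.3 (27.3 to 33.4). Ptprc-low cells, the clusters led by cell cycle genes, by hypoxia genes such as Car9 and by Igfbp3, had 30.7 (27.2 to 34.5) and 17.1 (15.7 to 18.7), and in the Igfbp3 cluster the level was 11.3 and 3.44. The labels do not say which of these are MC38 cells. Lymphocytes had between 26.1 and 92.1 CPM in the named classes, the highest from 8 UMIs of 57 water B cell-like cells.

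Pdcd1lg2, which encodes PD-L2 and lies beside Cd274, had another pattern. Migratory dendritic cell-like cells were highest again (298 and 266 CPM), but regulatory T cell-like cells (89.0 and 99.6), CD8 T cell-like cells (74.2 and 80.5) and NK cell-like cells (76.2 and 75.2) came next. Monocyte and macrophage-like cells had 11.8 and 5.75 CPM, and fibroblast-like and Ptprc-low cells had 0.443 CPM or less in both libraries. Within the CD8 T cell-like class the order was that of the receptors, 99.8 and 106.5 CPM in cluster 5 against 47.0 and 55.8 in cluster 10. After CD8 T cell-like cells with UMIs of another lineage were left out, which kept 388 of 410 and 772 of 804 cells, Pdcd1lg2 was still 68.5 and 81.5 CPM.

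Lgals9, which encodes galectin-9, was measured in every class and was the least selective member. Its level ran from 19.8 CPM (3 UMIs) in DFMO migratory dendritic cell-like cells to 415 and 427 in DFMO and water monocyte and macrophage-like cells. Cluster 6 of that class had 648 (567 to 736) and 612 (579 to 647). Ptprc-low cells had 159 and 138. Water migratory dendritic cell-like cells had 100.5 (68.3 to 143), so the class richest in the other 4 ligands was the poorest named class for Lgals9 in both libraries.

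Cd80 and Cd86 encode the ligands shared by CD28 and CTLA-4. Cd80 was highest in migratory dendritic cell-like cells, at 185 CPM (123 to 268) in DFMO and 295 (238 to 362) in water, while conventional dendritic cell-like cells had 31.8 and 22.4 and CD8 T cell-like cells 23.6 and 22.6. Within the CD8 T cell-like class it was highest in cluster 5, with 40.8 and 36.7 CPM against 2.76 and 2.60 in cluster 10. Leaving out the CD8 T cell-like cells with UMIs of another lineage gave 20.6 and 21.9 for the class. Cd86 was also highest in migratory dendritic cell-like cells (357 and 392 CPM), then in conventional dendritic cell-like cells (168 and 198) and in clusters 6 (119 and 119) and 9 (119.6 and 123). NK cell-like cells had 3.42 and 4.09, and fibroblast-like cells had 0 UMIs in both libraries, which allows up to 1.15 and 0.234 CPM.

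Between the libraries as wholes, all 5 receptors had higher CPM in DFMO, with log2 ratios of DFMO over water from 0.25 (Havcr2) to 0.995 (Lag3). Of the 10 members, 0 were past 2-fold and 8 had intervals above 0. Beside them, 8.601% of 13859 genes were past 2-fold higher in DFMO and 3.738% lower. The mixture of cells differed too, and its part was not tested. CD8 T cell-like cells supplied 10.1% of all UMIs of the DFMO library and 5.38% of those of the water library. Within classes the picture was smaller and mixed. In CD8 T cell-like cells 0 of the 10 members were past 2-fold, in a class where 2.47% of the 8994 genes with at least 30 UMIs were past 2-fold in either direction, and the median log2 ratio was -0.015 for the members and 0.043 for those genes. Ctla4 was 182 CPM in DFMO and 118 in water, a log2 ratio of 0.62 (0.42 to 0.83), and Lag3 574 and 491, a log2 ratio of 0.22 (0.12 to 0.33). Tigit was lower in DFMO, at 322 and 364 CPM (-0.17, -0.31 to -0.041), and so was Cd86, at 35.8 and 47.7 CPM (-0.41, -0.81 to -0.020). In cells taken by UMIs of Cd3e and Cd8a, without Cd4 or Foxp3, in place of clusters, the intervals of Ctla4 (123 and 115 CPM, 0.10, -0.11 to 0.31) and Lag3 (456 and 464 CPM, -0.027, -0.13 to 0.079) held 0. There Pdcd1 (-0.38, -0.49 to -0.28), Tigit (-0.49, -0.62 to -0.35) and Pdcd1lg2 (-0.49, -0.79 to -0.20) were lower in DFMO. Of these cells, 362 of 711 in DFMO and 28 of 724 in water were in the unnamed cluster 8. With every cell weighted alike in place of every UMI, Tigit was higher in DFMO, at 0.12. The intervals of the other 6 held 0, among them Pdcd1 (-0.095, -0.20 to 0.008) and Pdcd1lg2 (-0.12, -0.40 to 0.17).

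The direction of the receptors differed among the 3 CD8 T cell-like clusters, and this difference was not tested. In cluster 5, which held 53.2% of the class in DFMO and 45.9% in water, Lag3 (975 and 772 CPM, log2 ratio 0.34, 0.21 to 0.46), Ctla4 (221 and 171, 0.38, 0.11 to 0.64) and Havcr2 (191 and 154, 0.31, 0.029 to 0.59) were higher in DFMO. Pdcd1 was 884 and 848 CPM there (0.060, -0.063 to 0.18). In the dividing cells of cluster 15, Pdcd1 was lower in DFMO, at 313 and 552 CPM (-0.82, -1.03 to -0.61), and so were Tigit (168 and 270.1, -0.69) and Lag3 (274 and 383, -0.48), while Ctla4 was higher (179 and 121, 0.56, 0.20 to 0.91). The composition of cluster 15 differed as well: 18 of its 84 DFMO cells and 2 of its 136 water cells had a UMI of Cd4 or Foxp3, and Foxp3 itself was at 44.1 and 0 CPM. Without such cells the cluster's log2 ratio was -0.52 (-0.74 to -0.30) for Pdcd1, -0.57 (-0.89 to -0.26) for Tigit, -0.13 (-0.37 to 0.11) for Lag3 and 0.29 (-0.11 to 0.69) for Ctla4. Over the whole class without them, Ctla4 was at 0.51 (0.29 to 0.72), Lag3 at 0.35 (0.24 to 0.46) and Tigit at -0.10 (-0.24 to 0.035). Cluster 10 had few receptor UMIs, 25 and 13 for Ctla4 (69.1 and 16.9 CPM, 2.03, 1.011 to 3.12), of which 10 of the DFMO UMIs were in 2 cells with Cd4 or Foxp3, and without such cells its ratio was 1.32 (0.15 to 2.51).

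Regulatory T cell-like cells had 1 of 8 measured members past 2-fold, where 3.94% of 5285 genes were. This was Havcr2, with 9 UMIs in 139 DFMO cells (20.03 CPM) and 48 in 263 water cells (63.7 CPM), a log2 ratio of -1.67 (-2.88 to -0.63). Among the cells of this class with a Foxp3 UMI it was 12.6 CPM (2.60 to 36.9, 61 cells) in DFMO and 83.1 (58.5 to 114, 116 cells) in water. Among those without one the intervals overlapped. Havcr2 there was 28.35 CPM (10.41 to 61.71, 78 cells) in DFMO and 35.76 (17.85 to 63.98, 147 cells) in water. Ctla4, 932 and 1085 CPM, was slightly lower in DFMO (-0.22, -0.39 to -0.047). Pdcd1, 263 and 203 CPM, was higher (0.37, 0.011 to 0.73), and so was Cd274, 86.8 and 46.5 CPM (0.90, 0.20 to 1.60), from 39 and 35 UMIs. With doublets kept and the cells clustered and named anew, the Ctla4 ratio was -0.55 and that of Pdcd1 0.076 (-0.26 to 0.41). Taken by UMIs of Foxp3 and Cd3e in place of clusters (128 and 127 cells, of which 60 and 106 were in this class and 47 and 1 in the CD4 T cell-like class), Cd274 was at 49.4 and 43.3 CPM, and its interval held 0 (0.19, -0.61 to 0.99), as did that of Pdcd1 (0.34, -0.13 to 0.82). In those cells Lag3 (-0.91, -1.26 to -0.56), Tigit (-0.78, -1.04 to -0.53) and Ctla4 (-0.59, -0.77 to -0.41) were lower in DFMO, and Havcr2 was at -1.79 (-2.90 to -0.81).

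In NK cell-like cells 0 of 7 measured members were past 2-fold, beside 2.52% of 7688 genes. Lag3 (100.1 and 71.1 CPM, log2 ratio 0.49, 0.13 to 0.86) and Tigit (226 and 176, 0.36, 0.13 to 0.60) were higher in DFMO. In cells with Ncr1 and without Cd3e UMIs, Lag3 was at 0.41 (-0.004 to 0.83) and Tigit at 0.47 (0.21 to 0.73). Pdcd1lg2 was at 76.2 and 75.2 CPM, and its interval held 0 (0.018, -0.38 to 0.41). At a common depth of 1000 UMIs the shares of cells with a UMI were 9.13% and 6.197% for Lag3 and 18.8% and 18.9% for Tigit.

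Monocyte and macrophage-like cells had 2 of 7 measured members past 2-fold, beside 4.5% of 8858 genes. Both rested on few UMIs: Lag3 with 1 in DFMO and 37 in water (-2.87, -8.21 to -0.30), and Pdcd1lg2 with 13 and 32 (1.04, -0.015 to 2.01). Of the 37 water Lag3 UMIs, 22 were in 7 cells that also had Cd3 UMIs. Cd274 was 149 CPM in DFMO and 85.1 in water, a log2 ratio of 0.81 (0.54 to 1.07). In cluster 9 the ratio was 1.27 (0.98 to 1.56) from 386 and 160 CPM, and 54.5% of 66 DFMO cells against 34.6% of 387 water cells had a Cd274 UMI (25.8% and 14.3% at 1000 UMIs per cell). Cluster 6 was at -0.33 (-1.08 to 0.36), and the class without cluster 9 at -0.53 (-1.24 to 0.12). With doublets kept the class value was -0.115, and with a finer clustering -0.13. Clusters were made and named anew in both settings, so the class need not hold the same cells. Cells were also taken, in place of clusters, by a UMI of the marker Lyz2 and none of Cd3e, Ncr1, Cd79a or Flt3. In these 217 DFMO and 1394 water cells Cd274 was at 112.3 and 60.28 CPM, a log2 ratio of 0.898 (0.652 to 1.139). Havcr2 in cluster 9 was 84.3 and 53.0 CPM (0.67, 0.043 to 1.26). The interval of Cd86 held 0 in each of the 3 clusters (class ratio -0.13, -0.46 to 0.18).

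Cells with little Ptprc showed the same direction for Cd274. In Ptprc-low cells it was 30.7 and 17.1 CPM (277 and 511 UMIs, log2 ratio 0.84, 0.62 to 1.05), with 1.011 (0.73 to 1.29) in the cell cycle cluster and 0.56 (0.21 to 0.90) in the hypoxia gene cluster. Cd274 was also higher in DFMO in the Igfbp3 cluster of this class, but from under 30 UMIs and with an interval that held 0. In fibroblast-like cells Cd274 was 54.9 and 30.3 CPM (143 and 388 UMIs, 0.86, 0.57 to 1.14). Lgals9 differed little, at 0.20 (0.11 to 0.29) in Ptprc-low and 0.020 (-0.12 to 0.16) in fibroblast-like cells. Past 2-fold were 1 of 4 measured members in Ptprc-low cells (Lag3) and 1 of 3 in fibroblast-like cells (Lag3 too), beside 2.63% of 11661 and 3.65% of 10821 genes. Both Lag3 values were at or under the 2.88 CPM of DFMO B cell-like cells: 26 and 32 UMIs (2.88 and 1.07 CPM) in Ptprc-low cells, where Cd3e moved with it at 11.7 and 3.12 CPM and 11.0% of DFMO but 2.48% of water cells had a Cd3 UMI, and 2 and 28 UMIs in fibroblast-like cells. The part of admixed T cell RNA in them was not tested.

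**Figure D3:**
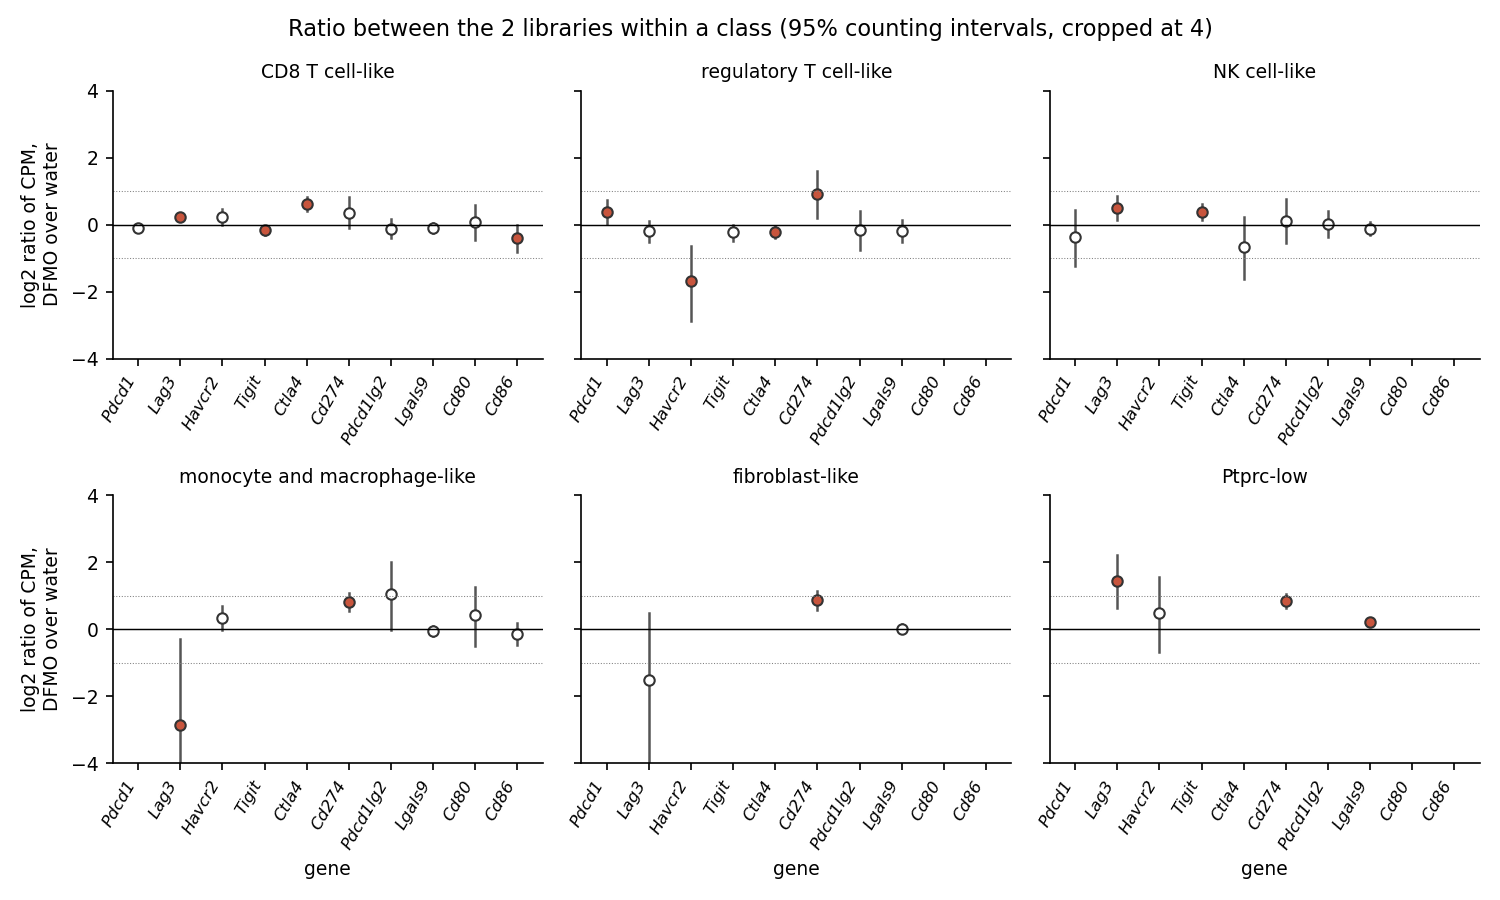
Log2 ratio of CPM, DFMO over water (y axis), for the members with at least 30 UMIs in each of 6 classes; bars are 95% counting intervals cropped at 4, filled points have intervals that do not hold 0, and dotted lines mark 2-fold. Cd274 is above 0 in the regulatory T, monocyte and macrophage, fibroblast-like and Ptprc-low panels (0.90, 0.81, 0.86 and 0.84), and in the CD8 T cell-like panel 4 of the 5 receptor points lie between -0.175 and 0.223.

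Single cells often carried several receptors. In CD8 T cell-like cells, 71.2% of 410 DFMO cells (66.6 to 75.6%) and 60.3% of 804 water cells (56.9 to 63.7%) had UMIs of 2 or more of the 5, and 16.1% and 7.09% had all 5. The median depth of these cells was 4537.5 UMIs in DFMO and 3084 in water. When each cell was thinned to 1000 UMIs, which left 405 and 780 cells, 2 or more receptors were found in 40.99% (36.2 to 46.0%) and 34.7% (31.4 to 38.2%), so the intervals overlapped. At 2000 UMIs, which left 372 and 632 cells, the intervals for 4 or more receptors did not overlap, with shares of 16.4% (12.8 to 20.6%) for DFMO and 9.02% (6.90 to 11.5%) for water. In cluster 5 these shares were 25.7% (19.9 to 32.3%) and 15.5% (11.7 to 19.9%), with intervals that met. At 1000 UMIs 64.4% and 59.9% of cluster 5 cells had 2 or more, against 6.67% and 5.61% of cluster 10 and 23.8% and 29.4% of cluster 15. Regulatory T cell-like cells were at 36.3% (28.2 to 45.01%) and 36.4% (30.3 to 42.9%), NK cell-like cells at 1.44% and 1.97%, and without thinning 0 of 1479 DFMO B cell-like cells had 2, which allows up to 0.203%.

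**Figure D4:**
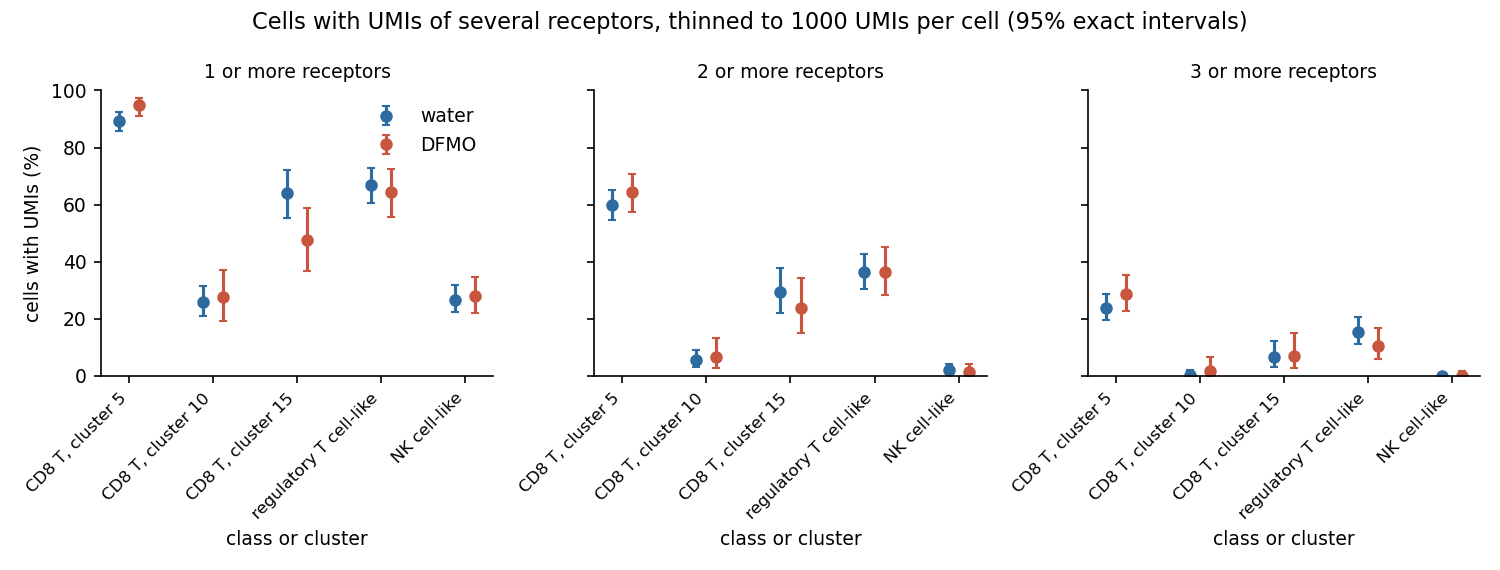
Share of cells (y axis, %) with UMIs of at least 1, 2 or 3 of the 5 receptors after thinning to 1000 UMIs per cell, in the CD8 T cell-like clusters 5, 10 and 15, regulatory T cell-like and NK cell-like cells of each library, with exact 95% intervals. Cluster 5 is highest in each panel (64.4% and 59.9% for 2 or more), and the intervals of the 2 libraries overlap in every class for 2 or more receptors.

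Across the CD8 T cell-like class, cells with 1 receptor had another at a higher share than cells without it, but inside cluster 5 of the DFMO library Lag3 was found less often in cells with Pdcd1. Over all CD8 T cell-like cells at 1000 UMIs, Lag3 was found in 47.7% of cells with Pdcd1 and 31.6% of those without it in DFMO, and in 47.7% and 25.5% in water. Cells with Havcr2 had Pdcd1 in 63.2% against 35.7% of the rest in DFMO, and in 61.9% against 31.7% in water. Inside cluster 5, Lag3 was in 49.2% of cells with Pdcd1 (40.4 to 58.1%) and 73.3% of those without (62.6 to 82.2%) in DFMO, and in 55.1% and 52.9% in water. In regulatory T cell-like cells, Tigit was found with Ctla4 in 54.1% of cells against 21.6% without in DFMO, and in 43.4% against 24.1% in water.

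At 1000 UMIs per cell, 12.0% of DFMO cells and 14.6% of water cells had a receptor UMI, 8.24% and 9.14% had a UMI of a ligand other than Lgals9, and 1.94% and 2.09% had both; without thinning, 9.30% and 12.2% had both. The cells with both Pdcd1 and a PD-1 ligand were few: of CD8 T cell-like cells with Pdcd1, 5.81% in DFMO and 7.52% in water had Pdcd1lg2, against 4.40% and 7.00% of those without, and 1.94% and 3.01% had Cd274.

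A list of 42 other checkpoint and costimulation genes, 40 of them in the matrix, was measured the same way. Of all measured genes, 2.47% were past 2-fold in either direction in CD8 T cell-like, 2.52% in NK cell-like and 3.94% in regulatory T cell-like cells. The share was 4.5% in monocyte and macrophage-like and 3.65% in fibroblast-like cells, and the counts below stand beside these shares. In CD8 T cell-like cells 1 of 26 measured genes was past 2-fold, the inhibitory receptor gene Btla (24 and 15 UMIs, 10.1 and 4.77 CPM, log2 ratio 1.09, 0.095 to 2.12), and the list's median log2 ratio was -0.003. In NK cell-like cells it was 1 of 22, the adenosine receptor gene Adora2a (63.3 and 30.2 CPM, 1.07, 0.56 to 1.59). Regulatory T cell-like cells had 3 of 22: Cd200 (95.7 and 33.2 CPM, 1.53) and Cd96 (84.6 and 38.5, 1.14) were higher in DFMO and Lgals3 (100.1 and 216, -1.11) lower. Ptprc-low cells had 3 of 19, all higher in DFMO, where 2.63% of all measured genes were past 2-fold in either direction. The largest of them was Ido1, a tryptophan-degrading enzyme gene (94 and 118 UMIs, 10.4 and 3.96 CPM, 1.395, 0.99 to 1.80), and the other two, Klrc1 (1.77 and 0.738 CPM) and Ptpn6 (1.66 and 0.805), were low. The summed T cell markers (39.4 and 15.1 CPM) and B cell markers (23.5 and 1.17 CPM) of that class moved with them, and their part was not tested. In monocyte and macrophage-like cells 1 of 28 was past 2-fold, Cd28 with 13 and 20 UMIs (1.72, 0.59 to 2.80). Fibroblast-like cells had 2 of 14, both lower in DFMO, Cd276 with 4 and 49 UMIs and Tnfrsf18 with 1 and 32.

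The partners of the members also fell into classes. Icos, a costimulatory receptor of the CD28 family, was at 810.0 and 1050.3 CPM in regulatory T cell-like cells and at 162 and 103 in CD8 T cell-like cells, and its ligand gene Icosl at 252 and 230 in B cell-like cells. Cd28 itself was at 247 and 282 CPM in regulatory T cell-like cells and 175 and 151 in CD8 T cell-like cells. Cd226 and Cd96, which share ligands with Tigit, were at 115 and 145 and at 129.5 and 130.4 CPM in CD8 T cell-like cells. The genes of those ligands were found in cells with little Ptprc: Nectin2 was at 27.3 and 27.5 CPM in fibroblast-like and 20.5 and 17.7 in Ptprc-low cells, and Pvr at 10.7 and 10.7 and at 17.4 and 15.4. Rgmb, which encodes a further partner of PD-L2, was at 59.9 and 71.7 CPM in fibroblast-like cells.

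Over the 20 sums of a class or unnamed cluster and a library with at least 50 cells, the genes whose log2(CPM + 10) was most like that of a member were often other members or genes of the same cells. These Pearson values describe points that share libraries and depth. Pdcd1 was most like Lag3 (r = 0.94), Cxcr6 (0.92) and Ccr8 (0.88), and Lag3 was most like Tigit (0.96), Cxcr6 and Pdcd1. Tigit followed Lag3, Gzmb (0.95) and Il12rb1, and Ctla4 followed Ikzf2 (0.98), Ccr8 (0.97) and Icos (0.97). Havcr2 was most like Entpd1 (0.89), the gene of the ectonucleotidase CD39, then Phf11a and Ube2a. For Cd274 the nearest genes were Gbp5 (0.87) and Irf1 (0.86), both known as interferon-induced, and Rab9 (0.85). Pdcd1lg2 was nearest to Mmd, Dusp5 and Dnajb6 (0.90 to 0.92), Lgals9 to Slfn8, Tmem50a and Zfp36l2, Cd80 to Nfkbib, Tnip3 and Ncoa7, and Cd86 to Coa5, Scamp2 and Pmaip1. With a pseudocount of 1 CPM in place of 10, 17 of the 30 pairs stayed: Havcr2 was then nearest to Phf11a, Vamp8 and Ccrl2, and Cd80 to Bcl2a1d, Plekhb2 and Coa5.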

How the data were processed

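The deposited values are raw UMI counts per gene and cell, in 1 matrix for both libraries with the library of each cell in a cell table, which the authors made with Cell Ranger 3.02 and Scanpy 1.4.4 on mm10, per the submitters' processing notes; each count is a molecule, so duplicates of 1 molecule are already collapsed. The 10 members, the 42-gene list and the cell type markers were chosen with earlier results of these data known. Cells with under 200 genes (1) and Scrublet doublets (51 DFMO, 97 water, 1.14% and 1.55%) were left out. Clustering used scanpy 1.11.5 (2000 variable genes without the members or the list, 30 principal components, 15 neighbours, Leiden resolution 1.0). A cluster was named from at least 3 markers, or called Ptprc-low under 20 CPM of Ptprc, by a rule set after the clusters were seen. Splits of a class by UMIs of Foxp3 or of dendritic cell markers were also added after seeing the data.

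UMIs were summed per class and library and divided by the class total (CPM), with exact Poisson, binomial (Clopper-Pearson) and conditional ratio intervals at 95% (scipy 1.17.1) that cover counting error only. A gene was measured in a class with at least 30 UMIs over both libraries. With 1 library per group no test was made, and the cells of a library are not replicates. Named genes are the 10 members, list genes past 2-fold, the partners of the members, and the 3 genes most like each member in the likeness of log2(CPM + 10) over sums of at least 50 cells and genes at a mean of at least 20 CPM. The scripts were tested on simulated data. Gene spans are from GENCODE M21 and promoters from RefSeq, which held 8 of the 10 genes. Cells of another lineage, cells with Cd4 or Foxp3, and the Arg1 and Mmp12 cluster were left out, and ratios were taken in cells gated by UMIs, as alternatives chosen after seeing the data, beside those on doublets, filters, clustering, scaling (edgeR 4.0.16 TMM), thinning, gates and pseudocount.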

Additional observations from a re-analysis of the deposited data

Results flagged for a closer look

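For several members the interval of the log2 ratio of DFMO over water lay wholly above 0 in some cells and wholly below 0 in others. The difference between those cells was not tested, and the intervals cover counting error only. Pdcd1 was at 0.370 in regulatory T cell-like cells, -0.627 in cluster 10 and -0.818 in cluster 15, the dividing CD8 T cell-like cells. Lag3 was at 0.337 in cluster 5, 0.223 in CD8 T cell-like cells as a class, 0.494 in NK cell-like cells and 1.424 in Ptprc-low cells, against -0.482 in cluster 15 and -2.871 in monocyte and macrophage-like cells, the last from 1 UMI in DFMO and 37 in water. Without cells with Cd4 or Foxp3, Lag3 in cluster 15 was at -0.128 (-0.368 to 0.109). In Ptprc-low cells it was at the level of DFMO B cell-like cells (2.88 CPM), Cd3e moved with it, and it ranged from 0.581 to 2.418 over the alternatives. Gated by UMIs, the CD8 T cells had Lag3 at -0.027 (-0.133 to 0.079).

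Tigit was at 0.668 in cluster 10 and 0.364 in NK cell-like cells, and at -0.178 in cluster 5, -0.689 in cluster 15 and -0.175 in CD8 T cell-like cells as a class. Ctla4 was at 0.376 in cluster 5, 2.033 in cluster 10, 0.556 in cluster 15 and 0.623 over the CD8 T cell-like class, and at -0.219 in regulatory T cell-like cells. Without cells with Cd4 or Foxp3 it was at 1.321 (0.149 to 2.512) in cluster 10 and at 0.292 (-0.106 to 0.688) in cluster 15, and in the CD8 T cells gated by UMIs at 0.104 (-0.107 to 0.314). Havcr2 was at 0.310 in cluster 5 and -1.670 in regulatory T cell-like cells. Lgals9 was at 0.199 in Ptprc-low cells and -0.263 in cluster 5. In cluster 15, 21.4% of DFMO cells and 1.47% of water cells had a UMI of Cd4 or Foxp3.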

How the results depend on the processing

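Of 413 values of 48 log2 ratios under the alternatives, 374 stayed within the counting interval, 34 left it, and 5 turned the sign of a ratio whose interval lay off 0. All 48 ratios under TMM scaling stayed within it. Lag3 in CD8 T cell-like cells (0.223) was 0.377 at Leiden resolution 0.5, 0.351 without cells with Cd4 or Foxp3 and 0.382 as a mean over cells, where Tigit was 0.119 against -0.175. Cd274 in monocyte and macrophage-like cells (0.807) was -0.115 with doublets kept, -0.130 at resolution 2.0, 0.062 with checkpoint genes allowed in the clustering and -0.525 without the Arg1 and Mmp12 cluster. All but the last of these settings clustered and named the cells anew, so the class need not hold the same cells. In cells gated by Lyz2 UMIs, Cd274 was at 0.898 (0.652 to 1.139). In cells gated by UMIs, Lag3 (-0.027) and Ctla4 (0.104) of CD8 T cells and Cd274 (0.189) of regulatory T cells had intervals that held 0. With the gates, Ctla4 in CD8 T cell-like cells ranged from 0.104 to 0.793. Cd274 in Ptprc-low cells, for which no gate was set, ranged from 0.782 to 0.864 over 7 alternatives of clustering, filters and scaling. The members past 2-fold in monocyte and macrophage-like cells (2) were 1 at resolution 0.5, at 2.0 and with checkpoint genes allowed, and 0 without cells of another lineage or the Arg1 and Mmp12 cluster. In Ptprc-low cells (1) they were 0 at resolution 2.0 and 2 of 7 measured from 10 UMIs, and in NK cell-like cells (0) 1 of 9 from 10 UMIs. At 10 UMIs, 3.338% of 13061 genes were past 2-fold higher and 3.185% lower in Ptprc-low cells. In NK cell-like cells these shares were 3.058% and 3.378% of 9680 genes. Shares with 2 or more receptors depended on depth: at 1000 UMIs, CD8 T cell-like cells had 40.99% in DFMO and 34.7% in water against 71.2% and 60.3% of unthinned cells, and regulatory T cell-like cells 36.3% and 36.4% against 59.0% and 54.0%. At 2000 UMIs, which leaves out cells with fewer UMIs, the share was 61.0% for DFMO CD8 T cell-like cells. For water regulatory T cell-like cells, whose median was 1982 UMIs, it was 61.5% of a smaller and deeper set of cells. These values belong to unlike classes and libraries and are not a comparison. No regulatory T cell-like class was found at resolution 0.5. No paired analysis was possible because DFMO and water have 1 library apiece.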

Other observations

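Lag3 was also found in an unnamed cluster led by Jchain, Siglech and Mzb1 (46 DFMO cells and 30 water cells). It was at 53.5 CPM there in DFMO, from 19 UMIs, and at 277 CPM in water, from 60 UMIs, and 8.70% and 70.0% of its cells had a Lag3 UMI. The cluster holds genes of plasma cells and of plasmacytoid dendritic cells and was left out of every comparison.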
